A study of Homo sapiens with 4 samples.

Results

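The nuclear coding sequence sites were the binding sites outside the mitochondrial genome that the deposited site lists annotated as coding sequence or as a start or stop codon, with neither intron nor 3′ untranslated region in the same label. They numbered 516 of the 2341 sites of the series, and 2184 of the 2341 were nuclear. The annotation alone chose them, so that their reads, base composition, conversion and overlap were not used by the rule. Of the 516 sites, 514 carried a gene name found in RefSeq, and 513 of these lay inside the span of that gene in GRCh38.

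The series measured fPAR-CLIP, in which RNA crosslinked to a tagged protein is recovered and sequenced, in the human embryonic kidney line HEK293 T-REx. Doxycycline-inducible lines that stably expressed GTPBP8 with a C-terminal FLAG tag (3 biological replicates) or AUH with a V5 tag (1 library) were compared, both on the wild-type background. Expression was induced over 48 h with doxycycline at 50 ng/ml, and 4-thiouridine was present at 100 µM for 16 h. The cells were irradiated at 312 nm for 5 min, and were lysed whole before FLAG or V5 immunoprecipitation. No library of cells without a tagged protein was analysed here, so that the background of the pulldown itself has no measured level, and AUH, with its single library, is a comparison protein and not an untreated control.

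Coding sequence is the stretch of an mRNA that the ribosome reads codon by codon, so cytosolic mRNAs under translation expose it to ribosomes and to elongation factors. GTPBP8 is a GTP-binding protein related to the bacterial ribosome assembly factor EngB, and AUH is an enzyme of leucine breakdown that also binds AU-rich RNA. Both are mitochondrial proteins, whereas nuclear mRNAs are translated mainly in the cytosol. In PAR-CLIP, a crosslinked 4-thiouridine is read as C in place of T, and RNase T1, the nuclease used to trim the RNA, cuts after G.

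Sequences are given 5′ to 3′ on the RNA strand as the lists hold them, written with T for U. Capitals mark every G, the base after which RNase T1 cuts. The first 4 are shown because an overlapping coding sequence site was listed in all 3 GTPBP8 libraries. They were SCD (chr10:100360741-100360768, plus strand), RAB10 (chr2:26034706-26034735, plus strand), ENO1 (chr1:8874824-8874850, minus strand) and HIST1H2BD (chr6:26158315-26158343, plus strand), all in GRCh38.
SCD: cttccacaactaccaccactcctttccc
RAB10: ccttcaatactacctttatttccaccataG
ENO1: ttGaGGttGatctcttcacctcaaaaG
HIST1H2BD: tccatcccGacaccGGcatctcttccaaG

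The next 3 are the sites with most reads in some further genes that had a coding sequence site in every GTPBP8 library, at chr17:7513858-7513884 (POLR2A, plus strand), chr12:49128288-49128316 (TUBA1B, minus strand) and chr19:3976561-3976588 (EEF2, minus strand). They are shown for the runs of C, T and A outside their G bases.
POLR2A: tcccaaatattcacccacctctcccaa
TUBA1B: ccaccatcaaaaccaaGcGcaGcatccaG
EEF2: tccctGccctGGacaacttcctGGacaa

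Of the AUH library, the sites of DNMT1 (chr19:10151819-10151842, minus strand), RPS6 (chr9:19378458-19378487, minus strand), SRRM2 (chr16:2761813-2761837, plus strand) and GNB2L1 (chr5:181242313-181242340, minus strand) are shown because these genes were among its 8 with most coding sequence reads. Each of them holds several G bases before its last base.
DNMT1: tcaGcaGcctGaGtGtGGGaaatG
RPS6: atactacaGtGcctcGccGcctGGGcccca
SRRM2: aaaGtttctcGGcatGccaGctctt
GNB2L1: accatcatcatGtGGaaactGaccaGGG

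Over all listed sites, coding sequence sites of AUH had a share of nuclear sites within the range of the GTPBP8 libraries, but coding sequence took a smaller share of the nuclear site reads of GTPBP8 than of AUH. The lists held 96, 188 and 79 such sites in GTPBP8 replicates 1, 2 and 3 and 153 in AUH, in 86, 164, 70 and 144 genes. Their share of nuclear sites was 23.0% (95% Wilson interval 19.2 to 27.3), 27.1% (23.9 to 30.5) and 19.8% (16.2 to 24.0) in the GTPBP8 replicates and 22.7% (19.7 to 26.0) in AUH. The GTPBP8 mean was 23.3% ± 3.61 (SD, n = 3), and the AUH value lay inside the range of the GTPBP8 libraries (exact permutation test over libraries, two-sided, p = 0.75). Among sites of at least 10 reads the share was 13.6% ± 4.12 for GTPBP8 (SD, n = 3) and 2.38% for AUH, with every GTPBP8 library above AUH (exact permutation p = 0.25). The AUH value at that minimum rests on 3 sites. The intervals take sites and reads as independent and leave out differences between libraries. Reads are not independent molecules, so the intervals of the read shares below are too narrow even for counting error.

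The reads gave another order. Coding sequence sites held 799, 1613 and 694 reads in the GTPBP8 replicates and 890 in AUH, which was 3.00% (2.80 to 3.21), 4.94% (4.71 to 5.18) and 2.23% (2.07 to 2.40) of nuclear site reads for GTPBP8 and 11.4% (10.7 to 12.1) for AUH. All 3 GTPBP8 libraries lay below AUH, with a mean of 3.39% ± 1.40 (SD, n = 3) and a difference of -8.03 percentage points, and the exact permutation test of 3 libraries against 1 gave its smallest possible p of 0.25. Counting only sites of at least 10 reads turned the order, with 1.62% ± 0.717 for GTPBP8 and 1.27% for AUH, from the same 3 sites (exact permutation test, p = 0.75). The total of nuclear site reads was 26677, 32665 and 31107 for GTPBP8 and 7795 for AUH. Sites of the 3′ untranslated region held 1093, 1756 and 864 of these reads for GTPBP8 and 799 for AUH. Intron sites held 2224, 4217 and 3024 for GTPBP8 and 1583 for AUH. Both classes thus also had a smaller share in every GTPBP8 library, so the order was not particular to coding sequence. Most nuclear site reads of GTPBP8 lay outside coding sequence, 3′ untranslated region and intron sites. Protein, library depth and the way the sites were listed cannot be told apart.

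**Figure D1:**
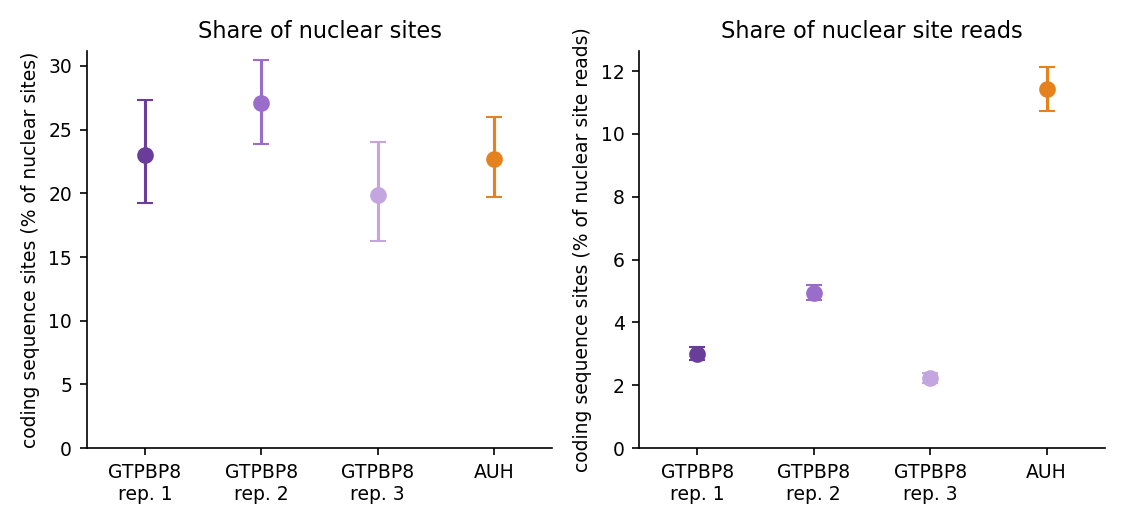
Share of coding sequence sites among nuclear sites (left, %) and among nuclear site reads (right, %) in each library, with 95% Wilson intervals as bars. The bars take reads as independent, which they are not, so those on the right are too narrow. By sites AUH (22.7%) lies among the GTPBP8 libraries (19.8 to 27.1%), and by reads AUH (11.4%) lies above all 3 (2.23 to 4.94%).

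The single site was shallow in every library. The lowest value was 5 reads in all 4 lists, the median was 6.5, 7 and 6 reads in the GTPBP8 replicates and 5 in AUH, and the highest was 31, 35, 47 and 37. Sites under 10 reads made up 71 of 96, 139 of 188 and 62 of 79 for GTPBP8 and 150 of 153 for AUH. The other nuclear sites had medians of 9, 8 and 10 reads for GTPBP8, so that the coding sequence median was lower by 0.47, 0.19 and 0.74 on the log2 scale in the 3 libraries (exact sign-flip test, two-sided, p = 0.25, the smallest possible). The AUH medians were 5 and 6 reads. Against 3′ untranslated region sites, with medians of 6, 7 and 6 reads for GTPBP8 and 5 for AUH, the log2 difference was 0.04 ± 0.07 (SD, n = 3), so the lower read number held against the pooled nuclear sites and not against that class. Site lengths were alike, with medians of 27, 29 and 27 nt for GTPBP8 and 29 nt for AUH.

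Most reads at these sites carried the T-to-C change that marks a crosslink. PARalyzer, the site caller for GTPBP8, uses this change to define sites, and the caller for AUH is not given. The level of conversion at listed sites is therefore not separate evidence of binding. The converted share of coding sequence reads was 82.7%, 80.3% and 74.4% in the GTPBP8 replicates and 90.3% in AUH. In the other nuclear sites it was 65.3%, 64.8% and 63.2% for GTPBP8 and 73.1% for AUH, lower in 4 of 4 libraries. The difference for GTPBP8 was 14.7 ± 3.20 percentage points (SD, n = 3; exact sign-flip p = 0.25) and was 17.2 points in AUH. At a minimum of 10 reads it was 8.68, 7.31 and -1.59 points in the GTPBP8 replicates, a mean of 4.80 ± 5.58, so replicate 3 turned. Taken as the median over sites in place of the sum of reads, the difference was -2.14 ± 2.31 points, so the typical site of the 2 classes did not show it. Against 3′ untranslated region sites, at 83.0%, 82.5% and 86.5% for GTPBP8 and 95.6% for AUH, the coding sequence share was lower by 4.83 ± 6.37 points, with the library values spread from -12.1 to -0.254.

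Coding sequence sites were richer in C and poorer in T than the other nuclear sites of the same library. C made up 34.7%, 32.7% and 35.1% of their bases in the GTPBP8 replicates, against 26.7%, 25.9% and 26.0% in the other nuclear sites, a difference of 7.94 ± 1.10 points (SD, n = 3). In AUH, C made up 27.9% of coding sequence site bases, a difference of 3.63 points from the other nuclear sites. The share of T was 25.4%, 24.5% and 24.1% for GTPBP8 and 22.4% for AUH, which differed from the other nuclear sites by -6.79 ± 0.598 points for GTPBP8 and by -7.79 points in AUH. The share of G and C added up was 49.5%, 47.5% and 48.4% for GTPBP8 and 53.5% for AUH, above the other nuclear sites by 6.76 ± 0.291 points for GTPBP8 and 6.64 in AUH. All 3 differences had the same sign in 4 of 4 libraries, with a sign-flip p of 0.25 over the 3 GTPBP8 libraries. 3′ untranslated regions, which form part of the other nuclear sites, are richer in A and U than coding sequence in human mRNAs, and the composition of all coding sequence was not measured here.

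G separated the proteins. It made up 14.8%, 14.8% and 13.4% of coding sequence site bases in the GTPBP8 replicates, a mean of 14.3% ± 0.840 (SD, n = 3), and 25.6% in AUH. Leaving out the last base, where an RNase T1 cut would place a G, the shares were 12.6%, 12.9% and 11.4% against 24.6%. The GTPBP8 mean was 12.3% ± 0.771 (SD, n = 3), a difference of -12.3 points from AUH, with the smallest p that 3 against 1 allows (exact permutation p = 0.25). Over sites of at least 10 reads, of which AUH had 3, the share of G before the last base was 13.4% ± 2.64 for GTPBP8 (SD, n = 3) and 25.6% for AUH. In the other nuclear sites G, last base included, made up 15.5% ± 0.288 for GTPBP8 (SD, n = 3) and 22.6% for AUH. Protein, library and site listing cannot be told apart in this difference.

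**Figure D2:**
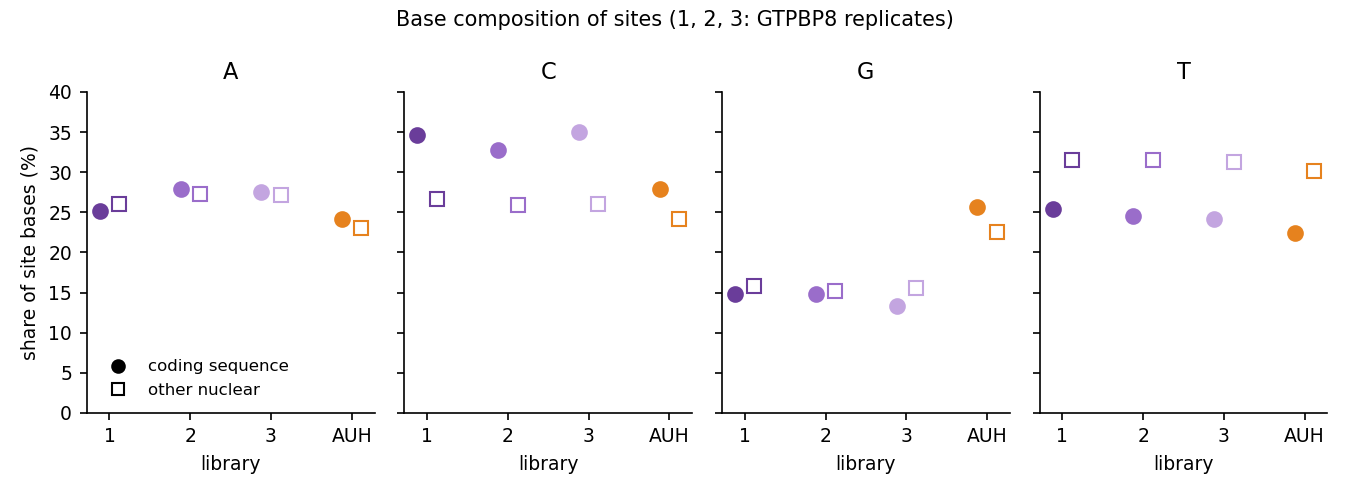
Share (%) of each base in coding sequence sites (filled circles) and in the other nuclear sites (open squares) of the 3 GTPBP8 replicates (1, 2, 3) and of AUH. C was higher and T lower in coding sequence sites of every library, and G was 13.4 to 14.8% in the GTPBP8 coding sequence sites and 25.6% in those of AUH.

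The same difference showed in single sites, as in the sequences above. The median coding sequence site held 4 G bases in each GTPBP8 library and 7 in AUH. Sites with no G before their last base, like those of SCD, RAB10 and POLR2A, numbered 28 of 96 (29.2%), 52 of 188 (27.7%) and 27 of 79 (34.2%) for GTPBP8. AUH had 0 of 153, which allows a share of up to 1.96%. Among the other nuclear sites the shares were 27.7%, 29.8% and 31.7% for GTPBP8 and 5.37% for AUH, so a low number of such sites was a property of the AUH list and not only of its coding sequence sites. The last base was a G in 69 of 96 sites (71.9%), 128 of 188 (68.1%) and 51 of 79 (64.6%) for GTPBP8 and in 82 of 153 (53.6%) for AUH. In the other nuclear sites it was a G in 49.8%, 51.9% and 53.6% for GTPBP8 and 49.3% for AUH, lower than in coding sequence in 4 of 4 libraries. Sites of the 3′ untranslated region ended in G in 50.0%, 55.3% and 67.5% for GTPBP8 and 72.1% for AUH, above coding sequence in replicate 3 and in AUH.

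The G content of GTPBP8 coding sequence sites lay between those of other classes. In 3′ untranslated region sites G made up 10.9% to 11.1% of bases for GTPBP8 and 20.8% for AUH, below coding sequence in 4 of 4 libraries. In intron sites it made up 17.2%, 15.8% and 15.3% for GTPBP8, above coding sequence, and in AUH it was below coding sequence. Sites with no G before the last base were more frequent in the 3′ untranslated region than in coding sequence, at 44.0%, 44.1% and 46.8% for GTPBP8 and 5.81% for AUH. In each of these classes AUH sites held more G than those of every GTPBP8 library.

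**Figure D3:**
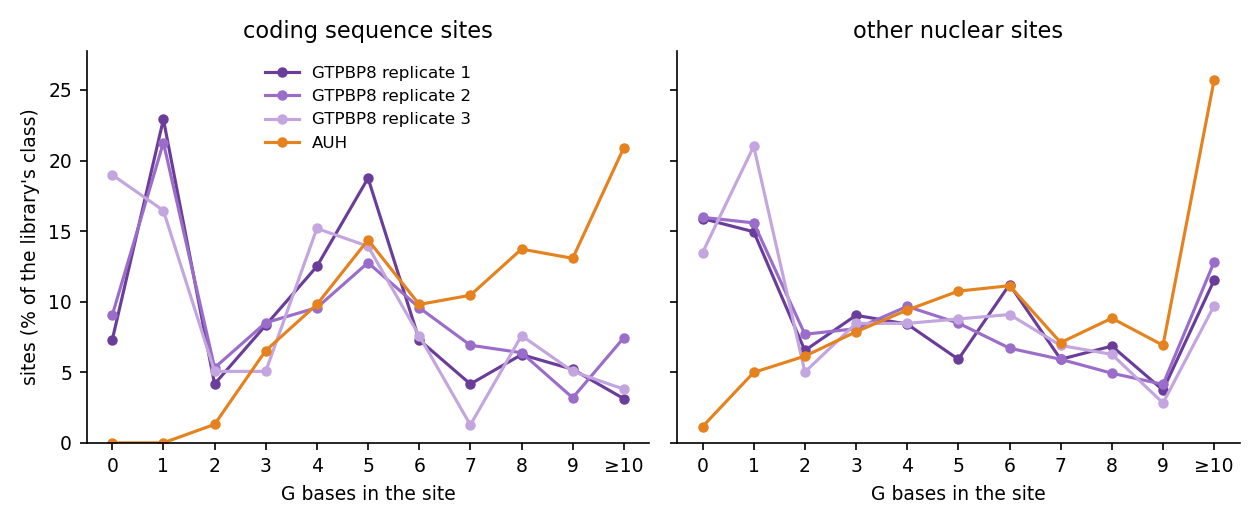
Number of G bases per site (horizontal axis) against the share of a library's sites (vertical axis, %), for coding sequence sites (left) and the other nuclear sites (right). In the left panel the GTPBP8 libraries have sites with 0 or 1 G, and AUH has none; its lowest site holds 2.

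Short words of C, T and A were the most frequent ones in the GTPBP8 sites. Of the 256 words of 4 bases searched on the RNA strand, CTTC stood in more GTPBP8 coding sequence sites than any other, in 39.6%, 34.6% and 36.7% of them, against 24.1% ± 0.734 of the other nuclear sites (SD, n = 3) and 20.9% of the AUH coding sequence sites. TCCA stood in 33.9% ± 3.18 of GTPBP8 and 16.3% of AUH coding sequence sites, and CACC in 32.3% ± 5.24 and 15.7%. The next words were CTCC, in 31.3% ± 4.13 of GTPBP8 sites, and CATC, in 31.3% ± 2.98, each in 16.3% of those of AUH. In AUH the words found most often were GGCC and CCTG, each in 25.5% of coding sequence sites, where GTPBP8 had 13.8% and 10.0%. CTTC was frequent in AUH as well, at rank 4 with ties. The GTPBP8 words named hold no G, so they are not independent of the lower share of G above. These words were picked for their values and may overlap each other in a site, so their shares are descriptions without a test.

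Few coding sequence sites were listed again in another GTPBP8 library. An overlap of at least 1 nt with a site of another replicate was found for 23 of 96 sites (24.0%) in replicate 1, where the share over all nuclear sites was 34.1%. In replicate 2 it was found for 26 of 188 (13.8%), against 24% over all nuclear sites, and in replicate 3 for 21 of 79 (26.6%), against 37.4%. The coding sequence share was thus below the background in 3 of 3 libraries. For the test, the overlap with each other replicate was taken singly and averaged, so its differences are not those of the shares above. In this measure coding sequence sites lay 13.0 ± 1.06 percentage points below the other nuclear sites (SD, n = 3; exact sign-flip p = 0.25). They lay 1.11 ± 1.85 points above 3′ untranslated region sites. The shares of 3′ untranslated region sites with an overlap in any other replicate were 19.0%, 15.5% and 22.1%.

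Joined across the 3 libraries, the GTPBP8 coding sequence sites formed 326 loci, of which 293 were listed in 1 library, 29 in 2 and 4 in all 3. The 33 loci in at least 2 libraries (10.1%) lay in 31 genes, among them 4 loci in histone genes and 4 in genes of cytosolic ribosomal proteins. Where a locus came back, its ends usually did too. The 3′ end was the same base in every library for 26 of the 33, the 5′ end for 24 and both for 19, and the site ended in G in every library for 21. The recurrent sites had more reads than those listed once, with medians of 8 against 6, 11 against 7 and 9 against 6 reads in replicates 1, 2 and 3. A site missing from a list may still have held reads below the 5 of the shallowest listed site, so absence is not a count of 0.

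Of the 4 loci listed in all 3 libraries, SCD had 16, 35 and 21 reads in replicates 1, 2 and 3. SCD encodes stearoyl-CoA desaturase, a membrane enzyme of fatty acid synthesis, and its site, like that of POLR2A, is printed above without any G. The ENO1 locus had 23, 7 and 9 reads, and both its ends were the same in the 3 libraries. ENO1 encodes the glycolytic enzyme enolase. HIST1H2BD (H2BC5 in RefSeq), a gene for histone H2B, had 12, 11 and 8 reads, and RAB10, a small GTPase of vesicle transport, had 5, 8 and 7. No library was highest at all 4 loci.

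Among loci listed in 2 of the 3 libraries, HSP90AB1, a cytosolic chaperone, had the site with most reads, 26 in replicate 1 and 47 in replicate 3, and none listed in replicate 2. EIF4G2, a translation initiation factor, had 27 and 14 reads in replicates 2 and 3, as did the stop codon of MAZ, a zinc finger transcription factor. MYC, a transcription factor of cell growth, had 16 and 20 reads in replicates 1 and 2. These pairs came from different combinations of libraries, and no pair of replicates held all of them. The other recurrent loci had between 5 and 21 reads in each library that listed them.

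**Figure D4:**
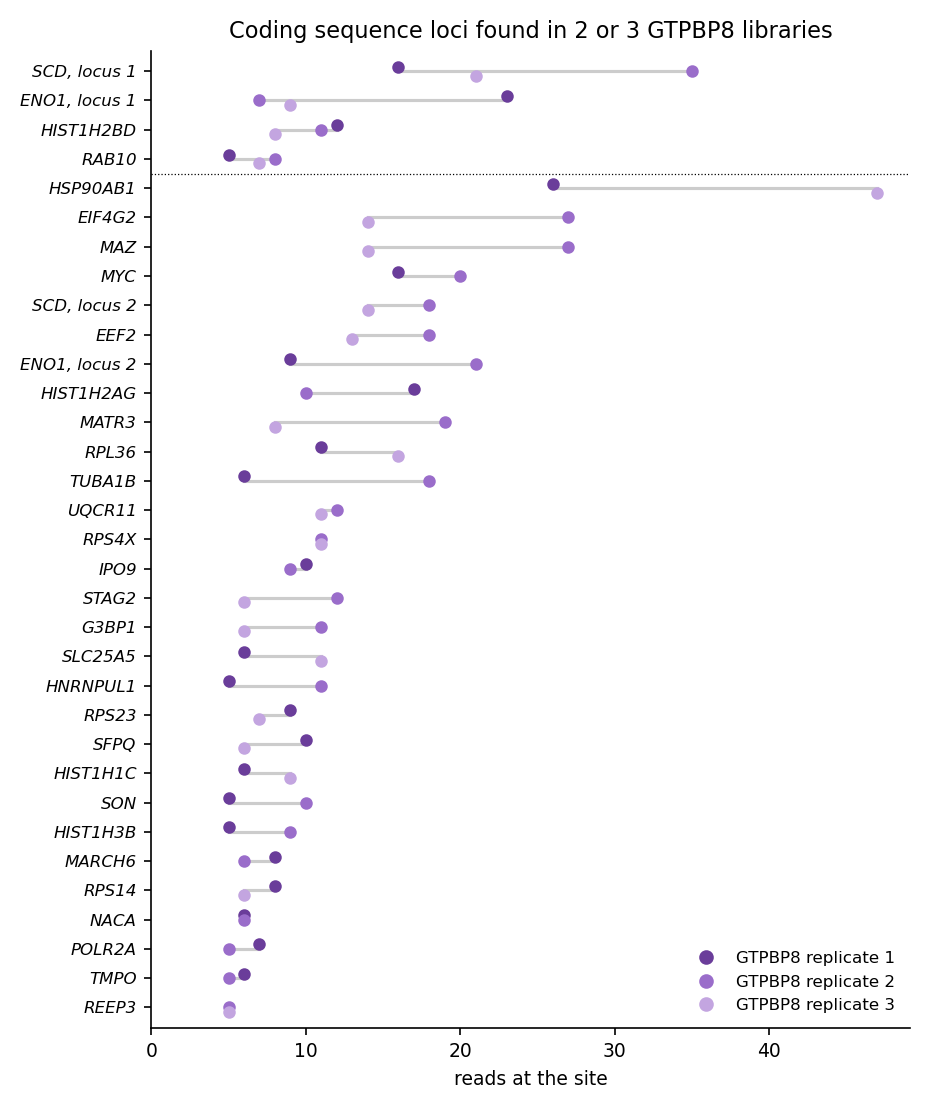
Reads (horizontal axis) at the 33 coding sequence loci listed in at least 2 GTPBP8 libraries, 1 row per locus, with a point for each library that listed it and a grey line over their range. The 4 loci above the dotted line were listed in all 3 libraries; most loci lie under 20 reads, and HSP90AB1 reaches 47.

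By gene, 259 genes had a GTPBP8 coding sequence site, 211 of them in 1 library, 35 in 2 and 13 in all 3 (5.02%). The share of genes in all 3 was 2.79% for 3′ untranslated region sites, 6.88% for intron sites and 6.25% for the other nuclear sites, so coding sequence genes came back no more often than those of nuclear sites in general. The 13 genes held 23.5%, 18.3% and 32.6% of the coding sequence reads of replicates 1, 2 and 3. Values below are their coding sequence reads summed over sites, and their share of nuclear site reads as a mean with the SD over the 3 libraries. Genes and libraries are compared without correction for mRNA abundance or length, which were not measured here.

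EEF2, the elongation factor that moves the ribosome along the coding sequence, had 13, 63 and 50 reads in 1, 5 and 5 sites, 0.134% ± 0.0757 of nuclear site reads and the highest mean of the 13 genes. NACA, a subunit of the complex that binds nascent chains as they leave the ribosome, had 26, 43 and 9 reads in 4, 5 and 1 sites, 0.0860% ± 0.0523. All NACA sites lay in the stretch chr12:56717221-56718696. Which NACA transcript they belong to was not determined. The values of EEF2 and NACA differed between libraries by over 4 times, with replicate 1 lowest for EEF2 and replicate 3 lowest for NACA. G3BP1, an RNA-binding protein of stress granules, had 5, 11 and 6 reads.

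Among genes of metabolism, membranes and the cytoskeleton, SCD had 16, 53 and 35 reads (0.112% ± 0.0511) and ENO1 had 32, 35 and 29 (0.107% ± 0.0134). ENO1 had the more even values over the 3 libraries. TUBA1B, an alpha-tubulin, had 17, 18 and 28 reads (0.0696% ± 0.0182). Its sites lay at different positions in replicate 3 and in the other replicates, and tubulin and histone genes have near-identical copies, so the copy that gave the reads is uncertain. RAB10 had 5, 8 and 7 reads (0.0219% ± 0.00292), the lowest share of the 13.

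Nuclear proteins made up the rest. HIST1H4C (H4C3 in RefSeq), which encodes histone H4, had 19, 12 and 9 reads, and HIST1H2BD had 12, 11 and 8 from its recurrent locus. POLR2A, the largest subunit of RNA polymerase II, had 7, 5 and 25 reads, so that replicate 3 stood apart. MATR3, a nuclear matrix RNA-binding protein, had 15, 19 and 8 reads, SFPQ, a splicing factor, had 10, 7 and 6, and SON, a large protein of nuclear speckles, had 11, 10 and 6.

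The next 10 genes by mean share were each listed in 1 or 2 GTPBP8 libraries. HSP90AB1 had 26 and 47 reads in replicates 1 and 3, EIF4G2 had 52 and 19 in replicates 2 and 3, and FTH1, the ferritin heavy chain, had 31 reads in replicate 1 alone, at its stop codon. The histone genes among them were HIST1H2BL with 11 and 30 reads in replicates 1 and 3, HIST1H2AG with 17 and 18 and HIST1H3B with 15 and 16 in replicates 1 and 2, and HIST1H2BC with 28 and 5 in replicates 2 and 3. MAZ, MYC and ACTB, which encodes beta-actin, completed the set. ACTB had 20 and 10 reads in replicates 2 and 3.

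Described by gene list, translation factors and ribosome-associated proteins had the highest mean share of GTPBP8 coding sequence reads among the 10 lists, with 7.01%, 11.2% and 11.2% in the replicates. The mean was 9.82% ± 2.44 (SD, n = 3), and the AUH share was 2.47%. Of the 26 genes of the list, 4, 6 and 3 had a GTPBP8 site and 2 an AUH site. In all, 86, 164 and 70 genes had a GTPBP8 coding sequence site and 144 an AUH one. EEF2 and NACA gave much of this share, as their reads show. Chaperones came to 4.71% ± 2.22 for GTPBP8 and 0.562% for AUH, with sites in 2, 3 and 1 of 28 genes for GTPBP8 and 1 for AUH. Cytoskeleton genes came to 4.25% ± 2.64 and 0.562%, with sites in 1, 5 and 3 of 27 genes for GTPBP8 and 1 for AUH. Glycolysis genes came to 4.18% ± 0.580 and 1.91%, with sites in 2, 3 and 1 of 16 genes for GTPBP8 and 3 for AUH. No GTPBP8 library thus had more glycolysis genes than AUH. In these 4 lists the read share of each GTPBP8 library lay above that of AUH. The same held for the lists of membrane and secretory, chromatin and replication, nuclear-encoded mitochondrial and histone proteins. It was thus not particular to these 4 lists. At this depth 1 gene can carry a list, as HSP90AB1 did for the chaperones of replicate 3. In glycolysis, GAPDH had 6 and 18 reads in GTPBP8 replicates 1 and 2, beside ENO1.

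The lists of ribosomal and RNA-binding proteins had no higher share for GTPBP8. Cytosolic ribosomal protein genes had 3.40% ± 1.72 of coding sequence reads for GTPBP8, with sites in 5, 4 and 2 of 38 genes, and 5.84% for AUH, in 5 genes. RPS4X had 11 and 11 reads in replicates 2 and 3, and RPS14 had 8 and 6 in replicates 1 and 3, both for proteins of the small subunit. RNA-binding and splicing proteins had 4.66% ± 1.71 for GTPBP8 and 5.62% for AUH, and the GTPBP8 libraries ranged around the AUH value. KHSRP, a splicing regulator, had 15 and 5 reads in replicates 1 and 2. Membrane and secretory proteins, led by SCD, had 4.17% ± 0.767 against 1.12%, and chromatin and replication proteins 2.65% ± 0.824 against 1.12%. A list of nuclear-encoded mitochondrial proteins, whose mRNAs can be translated near the organelle that holds GTPBP8 and AUH, had 2.53% ± 0.864 for GTPBP8 and 1.12% for AUH, with sites in 3, 2 and 3 of 62 genes for GTPBP8 and 2 for AUH. The list holds only part of the genes for mitochondrial proteins. It leaves out UQCR11, with 12 and 11 reads in GTPBP8 replicates 2 and 3, among others. Also left out are MRPL1, MRPL51, MRPS2 and NDUFB10, with 5 AUH reads each and no GTPBP8 site. The order of the proteins over that whole class was not measured and may differ from that of the list, whose shares are lower limits. Among members of the list, ATP5B (ATP5F1B in RefSeq), the catalytic subunit of ATP synthase, had 12 and 12 reads in replicates 1 and 2. SLC25A5, an ADP/ATP carrier of the inner membrane, had 6 and 11 in replicates 1 and 3. No gene list was tested against the remaining genes.

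Histone genes were listed for GTPBP8 and not for AUH. Over all libraries, 13 genes whose name begins with HIST had a coding sequence site, a group formed after their values were seen. Of these, 10, 9 and 5 had a site in GTPBP8 replicates 1, 2 and 3. They held 104, 125 and 61 reads, or 9.85% ± 2.79 of coding sequence reads (SD, n = 3). None of the 153 AUH coding sequence sites lay in them, so the 13 were set by the GTPBP8 sites themselves. Histone genes without a listed site were not counted. Over all coding sequence genes, 6.18% of the 259 GTPBP8 genes had an AUH coding sequence site. Replication-dependent histone mRNAs lack a poly(A) tail and introns. An AUH site without an annotation overlapped a GTPBP8 coding sequence site of HIST1H3B, so reads at a histone gene were present in AUH without that label.

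**Figure D5:**
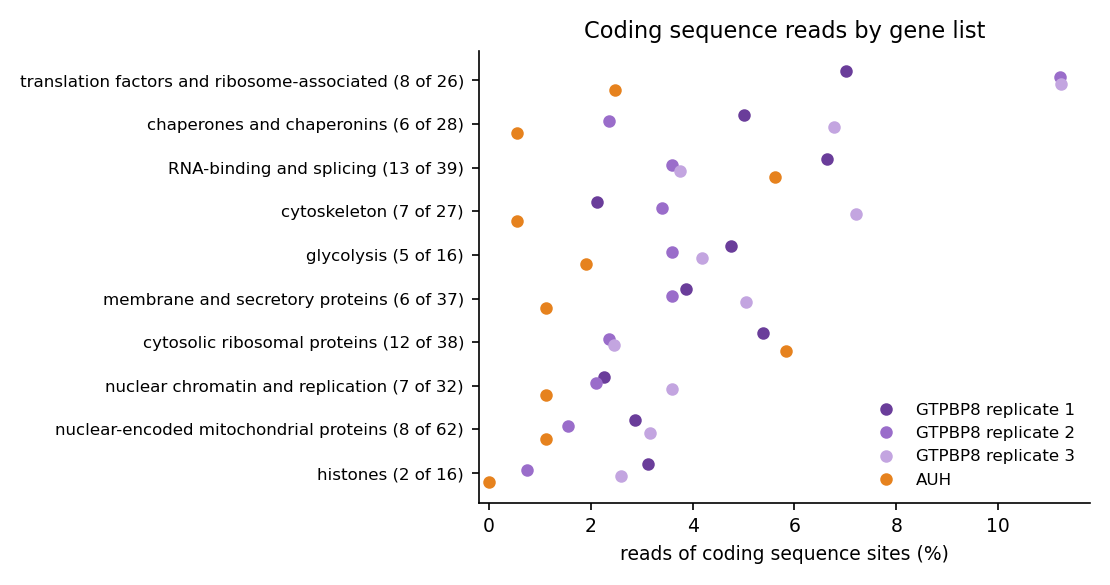
Share (%) of a library's coding sequence reads in the genes of 10 lists, with 1 point per library; brackets give the genes with a coding sequence site in any library out of the genes of the list. Translation factors and ribosome-associated proteins reach 7.01 to 11.2% in the GTPBP8 libraries and 2.47% in AUH; the list of histones holds only part of the histone genes.

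In AUH, DNMT1, the maintenance DNA methyltransferase, had 37 reads in a single site, and all 37 were converted. It was the coding sequence site with most reads in that library, and no GTPBP8 library listed a coding sequence site of DNMT1. The following genes were SON with 20 reads, RPL8 with 19 and GNB2L1 with 17, each from 3 sites, and SRRM2 with 16, also from 3. RPL8 encodes a protein of the large ribosomal subunit, GNB2L1 (RACK1 in RefSeq) a protein of the small subunit and SRRM2 a spliceosome protein. RPS6, of the small subunit, had 12 reads, RPL18, of the large subunit, had 11, and DST, a cytoskeletal linker, had 10. These 8 genes were the only ones that reached 10 reads in AUH.

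Coding sequence sites of the 2 proteins shared some genes and no position. Of the 387 genes with a site in any library, 16 had one for both proteins, which was 6.18% of the 259 GTPBP8 genes and 11.1% of the 144 AUH genes. Over all nuclear sites the shares were 7.42% of GTPBP8 genes and 12.9% of AUH genes, and over 3′ untranslated region sites 9 genes were shared, of 251 and 82, so the coding sequence shares were near those of the nuclear sites in general. 3 of the 13 genes found in all GTPBP8 libraries were among them, ENO1, MATR3 and SON. Their AUH reads were 7, 8 and 20. None of the 363 GTPBP8 coding sequence sites overlapped an AUH coding sequence site.

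The distance between the nearest sites of the proteins within these genes ran from 11 nt for GNB2L1 and 13 nt for RPS6 over 37 nt for ENO1 to 39891 nt for TPX2, measured on the genome with introns included. Its median was 554.5 nt, and 11 of the 16 genes were under 1000 nt. GNB2L1 had 5 reads in GTPBP8 replicate 1 and RPS6 had 5 in the same replicate. Both code for proteins of the small ribosomal subunit.

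Against AUH sites of any annotation, 0 of 96, 2 of 188 and 0 of 79 GTPBP8 coding sequence sites overlapped, where the share over all nuclear sites was 3.12%, 2.3% and 3.52%. It was as low in other mRNA classes, with 0, 1 and 1 overlapping sites of the 3′ untranslated region and none of introns. From the AUH side, 0 of 153 coding sequence sites overlapped a GTPBP8 nuclear site, against 4.01% of all AUH nuclear sites. Both overlapping sites were in replicate 2. RPL6, a protein of the large ribosomal subunit, had 13 reads for GTPBP8 and 6 for AUH, with 26 nt shared, and HIST1H3B, a histone H3 gene, had 7 and 7 with 22 nt shared. The AUH site of RPL6 (chr12:112405961-112405987, minus strand, annotated as exon) and the GTPBP8 site of HIST1H3B (chr6:26031749-26031770, minus strand) are shown as the positions where the 2 proteins met.
RPL6: GtcattGccacttcaaccaaaatcGat
HIST1H3B: tGaGGcctacttGGtaGGGctc

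The annotation labels of the 2 kinds of list were not the same. The AUH list used the label exon for 29 nuclear sites of protein-coding genes, with 169 reads, and the GTPBP8 lists did not use it. Counted as coding sequence, these sites raised the AUH share to 27.0% of nuclear sites and 13.6% of nuclear site reads, an alternative chosen after the values were seen. Both differences between the proteins are given under the rule as stated.

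Start and stop codons were rarely listed. A start codon was labelled in 0, 1 and 0 GTPBP8 sites and in 7 AUH sites, and a stop codon in 3, 6 and 4 GTPBP8 sites and in 3 AUH sites. The GTPBP8 start codon site was in RPL10, with 7 reads. The 13 GTPBP8 stop codon sites lay in 11 genes, and those of MAZ and UQCR11 were listed in 2 libraries. The UQCR11 site, in a gene for a subunit of respiratory chain complex III, had 12 and 11 reads in replicates 2 and 3 with the same ends, at chr19:1599421-1599447 on the minus strand, and FTH1 had its 31 reads at chr11:61964704-61964730, also on the minus strand. The UQCR11 site holds a G only as its last base, and the FTH1 site has 3 adjacent G bases inside.
UQCR11: ataattaattacacaaacccttcacaG
FTH1: ctaaGcctcGGGctaatttccccataG

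The mRNAs of the tagged proteins gave few reads. A coding sequence site in the GTPBP8 mRNA was listed in replicate 2 alone, at chr3:112991307-112991333, with 13 reads of which 9 were converted. It is shown because it lies in the mRNA of the tagged protein itself.
GTPBP8: accacGccccGGaccttccGcGGccaG

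The AUH mRNA had sites in the AUH library with 7 and 5 reads, labelled exon, which the rule did not count. Reads of the transgene and of the endogenous gene cannot be told apart in coding sequence. No GTPBP8 library listed a coding sequence site of AUH, and the AUH library listed none of GTPBP8.

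Most genes had a single coding sequence site. Genes with at least 2 numbered 8, 13 and 6 in the GTPBP8 replicates and 5 in AUH. A site in the 3′ untranslated region was also listed for 4, 9 and 3 of the 86, 164 and 70 GTPBP8 genes and for 3 of the 144 AUH genes. Each distinct read sequence at a GTPBP8 coding sequence site was counted 1.70, 1.97 and 1.64 times in replicates 1, 2 and 3, and with distinct sequences in place of reads the coding sequence share of nuclear reads was 2.87%, 4.36% and 2.16%.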

How the data were processed

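fPAR-CLIP reads were processed by the authors with bcl2fastq (2.17.1 in the submitters' processing notes), Cutadapt, PARpipe and PARalyzer for GTPBP8 and mapped to GRCh38 (hg38). The annotation release for GTPBP8, and the site caller for AUH, are not given in the sources used here. Sites were called per library. For GTPBP8 the authors deposited unnormalized read counts per site and the fraction of converted reads. For AUH the authors deposited numbers of converted reads, of the expected count type (averages at merged sites) and the converted fraction, and the reads of an AUH site were computed by dividing the former by the latter and rounding. The deposited AUH column of total reads, which appeared multiplied at annotated sites, served as an alternative. Starts in the AUH list were shifted to 1-based positions.

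Because a site absent from a list has no count, no model across genes was fitted. Libraries were the replicates. GTPBP8 was compared with AUH by an exact permutation test and classes of sites within libraries by an exact sign-flip test, both two-sided, with a smallest p of 0.25, so that neither can pass 0.05. Intervals are 95% Wilson intervals, and the upper limit beside a count of 0 follows the rule of 3. Site overlap required 1 nt on the same strand. Alternatives were a minimum of 10 reads, a wider annotation rule, other site classes, other denominators, distinct reads, an overlap of 50%, and each library left out. The calculations were tested on simulated data and run in Python 3.11.15 with numpy 2.4.6, pandas 2.3.3, scipy 1.17.1 and matplotlib 3.10.9. Gene names were matched to RefSeq for 374 of 387 genes, by current or older symbol. No genome sequence was used, and sequences are those of the lists.

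The sites, gene lists and tests were chosen with earlier results of these data known. Genes named are those with a site in every GTPBP8 library, the next 10 by mean share of nuclear reads, the 8 with most AUH reads, those shared by both proteins, and list members in at least 2 libraries. Genes named for start or stop codons, overlapping sites or the tagged proteins, and words of 4 bases, were chosen after values were seen. 1 site sequence is not reported here.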

Additional observations from a re-analysis of the deposited data

Results flagged for a closer look

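The share of G in coding sequence sites minus that in the other nuclear sites of the same library was -0.96, -0.39 and -2.18 percentage points in GTPBP8 replicates 1, 2 and 3 and 3.00 points in AUH. Without the last base of each site the differences were -1.91, -1.05 and -2.69 points for GTPBP8 and 2.89 points for AUH. These values were picked out because every GTPBP8 library lay on one side of 0 and the AUH library on the other. The difference between the proteins was not tested, since AUH has 1 library, and protein, library and site listing cannot be told apart. Against 3′ untranslated region sites alone, coding sequence sites held more G in all 4 libraries, so the opposite signs depend on the class compared.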

How the results depend on the processing

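Of 79 alternative values for the 9 comparisons, 69 did not reverse and 10 reversed. Those not reversed include the difference in median length, 0.33 nt, which was 0 without replicate 2 and against 3′ untranslated region sites. No comparison could pass 0.05 under any setting. The coding sequence share of nuclear reads, GTPBP8 minus AUH, was -8.03 percentage points and became 0.35 at a minimum of 10 reads. It ranged from -8.80 to -7.45 with a GTPBP8 library left out and was -20.3 with the deposited AUH totals. The share of nuclear sites, 0.61 points, became -0.93 under the wider annotation rule, -1.45 over annotated sites, and -3.70 with AUH exon sites counted, an alternative added after seeing the data. At a minimum of 10 reads it was 11.2 points, with 3 AUH sites left, and the converted share fell from 14.7 to 4.80 points. With a GTPBP8 library left out the share of nuclear sites ranged from -1.26 (without replicate 2) to 2.34. Against 3′ untranslated region sites, the log2 difference in median reads became 0.038 (and 0.038 against introns), the converted share -4.83 points and the overlap between replicates 1.11 points. The converted share as a median of sites became -2.14 points. Left-out libraries moved the G share before the last base, GTPBP8 minus AUH, over -12.6 to -11.8 points, and reversed no other comparison. Of 91 alternative values for the 13 genes listed in every GTPBP8 library, 20 moved by more than the SD between libraries, each with a minimum of 10 reads or with all site reads as denominator. No site sequence was repeated within a library, so leaving out such sites changed no value. No paired analysis was possible because AUH has a single library without a replicate number. Depth limits gene values: a listed site held as few as 5 reads, and a gene without a site may have held reads below that.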
